A study of Mus musculus with 22 samples.

Results

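Neurotransmitter receptor genes were followed in a map of H3K27me3, the repressive histone mark placed by Polycomb repressive complex 2 (PRC2), in mouse retinas with and without Jarid2, an accessory subunit of that complex. The members were all peaks that the deposited annotation assigns to genes named as adrenergic, dopamine, serotonin, muscarinic, nicotinic, glutamate, GABA-A or glycine receptor subunits, outside the X chromosome. They came to 116 of 19034 peaks and 78 of 12370 genes. Of the 78 genes, 76 encode receptors or receptor subunits. The other two matched by name: Grid2ip encodes a protein that binds a delta glutamate receptor, and Chrna1os is an antisense transcript. The rule left out 5 peaks of 4 genes on the X chromosome (Gabrq, Glra2, Gria3 and Htr2c). These receptors carry fast transmission (ligand-gated channels for glutamate, acetylcholine, GABA, glycine and serotonin) or act through G proteins (metabotropic glutamate, muscarinic, adrenergic, dopamine and most serotonin receptors).

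H3K27me3 covers the start sites, and often long stretches, of developmental and cell-type-specific genes that are held silent in a tissue or are silent in most of its cells. Receptor genes are a common class of such genes, since each neuron uses a small selection of them. In the retina, ON bipolar cells read the photoreceptor signal through the metabotropic receptor Grm6, OFF bipolar cells through ionotropic glutamate receptors, and amacrine and ganglion cells through AMPA, NMDA, GABA-A, glycine and nicotinic receptors.

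The mark was mapped by CUT&RUN, in which antibody-bound nuclease cuts free the DNA next to marked nucleosomes, at embryonic day 18.5 (E18.5). Knockout animals (cKO, n = 5) were Jarid2 fl/fl; Rx-cre. Of 5 control animals, replicate 1 was Jarid2 fl/+; Rx-cre, replicates 2, 4 and 5 were Jarid2 fl/+, and replicate 3 was Jarid2 fl/fl. All were on the C57BL/6 background, and all dams were given tamoxifen (75 µg per g) at E10.5. Cre acts in retinal progenitors under the Rx (Rax) driver in an inducible form, so deletion depends on how many of them recombined. Each sample was the pooled pair of retinas of 1 animal. Batch 1 held 2 animals per genotype from a single litter, of both sexes, and batch 2 held 3 male animals per genotype, each run in technical duplicate. The whole retina was used, so fewer cells with the mark at a gene and less mark per cell cannot be told apart.

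Animals held 1688368 to 2864080 reads in peaks, and receptor peaks took 1.04% to 1.11% of them. The technical duplicates of batch 2 differed by less than counting noise and were summed. The mark was strong at genes of other lineages: 6 of 10 regulators silent in retina had a peak, with a median of 1106 CPM in controls (the reads of a gene's peaks scaled by TMM to the reads in all peaks), against 126 CPM at the 5 of 10 retinal regulators that had one. These levels are not divided by peak width, so wider peaks also raise them. The summed level of those 5 retinal regulators was 935 to 1125 CPM in controls and 723 to 862 CPM in cKO, with no overlap. Single genes ranged from 3.16 to 731 CPM in controls, so most of this sum comes from 1 gene. It does not show that the 5 genes changed alike. Of 10 genes of pigment epithelium, vessels, lens and microglia, 3 had a peak, and their summed level was 227 to 244 CPM in controls and 216 to 227 CPM in cKO. The part of such cells, or of a shift among retinal cells, in any receptor result was not tested. The peak at the Jarid2 start held only 3.98 to 5.10 CPM in controls and 2.67 to 6.4 CPM in cKO. At this low level no difference was called (log2 fold change -0.07, edgeR adjusted p = 0.929). A histone mark there also does not show whether the floxed exon was removed.

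The starts of 5 receptor genes that the results turn on are shown for their CpG content, since CpG-rich start sites are typical sites of PRC2 binding. Each line is the 250 bases before a RefSeq start (GRCm38.p6, the assembly behind mm10), 5′ to 3′, with CG dinucleotides in capitals. The windows are chr11:43836490-43836739 (minus strand) for Adra1b, chr9:55026563-55026812 (minus) for Chrna3, chr13:10360804-10361053 (minus) for Chrm3, chr11:50850435-50850684 (plus) for Grm6 and chr6:110645262-110645511 (plus) for Grm7.
Adra1b: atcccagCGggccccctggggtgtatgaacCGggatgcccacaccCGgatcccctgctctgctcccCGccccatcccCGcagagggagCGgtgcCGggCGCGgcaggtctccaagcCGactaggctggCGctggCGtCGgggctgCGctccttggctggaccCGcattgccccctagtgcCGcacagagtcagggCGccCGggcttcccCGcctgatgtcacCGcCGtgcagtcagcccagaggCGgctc
Chrna3: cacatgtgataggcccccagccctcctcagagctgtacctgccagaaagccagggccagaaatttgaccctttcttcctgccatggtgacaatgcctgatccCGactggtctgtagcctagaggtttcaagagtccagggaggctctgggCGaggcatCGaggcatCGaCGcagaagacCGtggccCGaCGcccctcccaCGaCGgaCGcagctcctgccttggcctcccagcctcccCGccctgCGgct
Chrm3: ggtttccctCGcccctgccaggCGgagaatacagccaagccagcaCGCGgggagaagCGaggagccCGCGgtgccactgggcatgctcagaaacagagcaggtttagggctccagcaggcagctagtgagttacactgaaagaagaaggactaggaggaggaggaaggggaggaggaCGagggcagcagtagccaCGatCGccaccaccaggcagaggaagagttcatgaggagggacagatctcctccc
Grm6: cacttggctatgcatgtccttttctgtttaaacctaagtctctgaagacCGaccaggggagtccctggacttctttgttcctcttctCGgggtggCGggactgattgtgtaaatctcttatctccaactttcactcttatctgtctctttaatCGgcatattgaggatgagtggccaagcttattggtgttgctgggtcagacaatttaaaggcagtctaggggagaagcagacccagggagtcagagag
Grm7: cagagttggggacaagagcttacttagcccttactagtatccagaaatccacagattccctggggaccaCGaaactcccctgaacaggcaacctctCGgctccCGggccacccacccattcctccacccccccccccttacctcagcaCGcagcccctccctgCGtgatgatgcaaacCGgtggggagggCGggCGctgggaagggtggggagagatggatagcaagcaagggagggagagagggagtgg
The Adra1b window holds 22 CG, the Chrna3 window 13, the Chrm3 window 10, the Grm7 window 8 and the Grm6 window 4. Those of Adra1b, Chrm3 and Grm6 lie under a peak, that of Grm7 does not, and the Chrna3 peak begins 2 bases inside the gene. Adra1b and Grm7 each have 2 windows in RefSeq. A window under a peak was shown where a gene had any, so for Adra1b its place under a peak follows from this choice. The other Adra1b window, chr11:43901238-43901487, holds 3 CG and is not under a peak. The other Grm7 window holds 9 CG and is not under a peak either. Windows were found for 52 of the 76 receptor genes. The shares that follow take all autosomal receptor windows in RefSeq. They thus include receptor genes with no assigned peak, and some genes have several windows. Of 47 such windows under a peak (41 genes), 55.3% held 10 or more CG (CG is its own reverse complement, so both strands give the same count). Of 29 receptor windows not under one (26 genes), 27.6% did. The same shares were 59.6% and 49.7% over windows of all protein-coding genes in RefSeq, and 38.3% over all windows.

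In control retinas the mark was dense at receptor genes. The level of a gene is given as CPM per kb of its peaks when genes are compared. The median over the 78 genes was 11.9 CPM per kb, against 5.80 over all genes of the table, and 82.1% (64 genes) lay above that all-gene median. Promoter peaks made up 67.2% of receptor peaks and 49.4% of all peaks. By class, the median level was 17.1 CPM per kb for ionotropic glutamate, 15.1 for metabotropic glutamate, 14.7 for adrenergic, 13.3 for dopamine and 11.2 for serotonin receptors. It was 8.85 for GABA-A, 8.20 for muscarinic, 7.17 for nicotinic and 5.86 for glycine receptors. Ranges of the classes overlapped widely, as the plot of levels by class shows, and the class order was not tested.

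**Figure D1:**
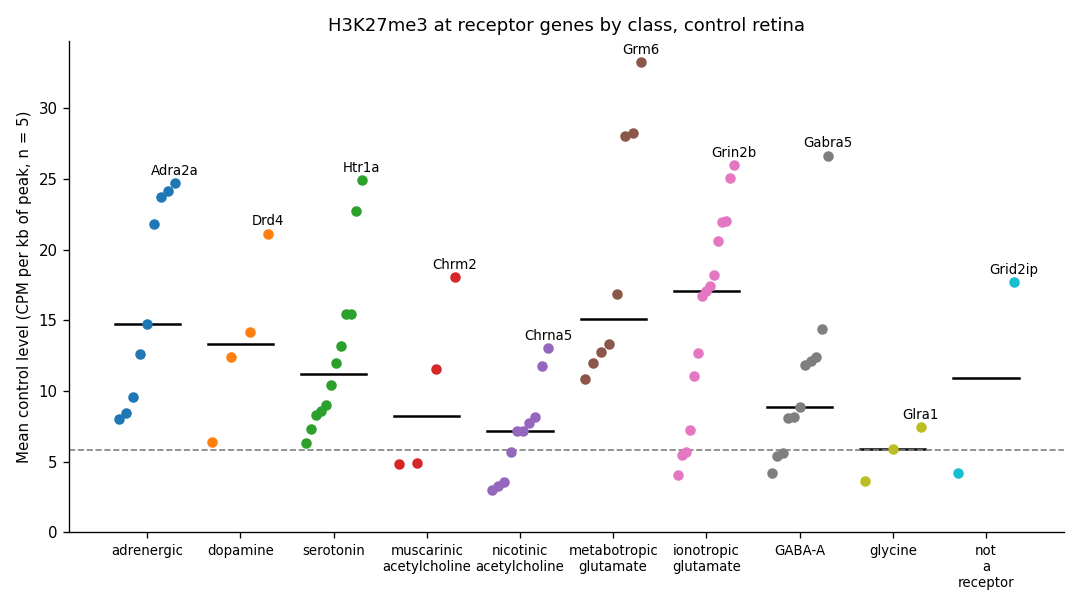
Each point is a member gene, with its mean control level (CPM per kb of peak, n = 5 animals) on the vertical axis. The horizontal axis gives receptor classes and the members that encode no receptor. Black bars are class medians, the dashed line is the median over all genes of the table (5.80), and the highest gene of each class is named, led by Grm6 at 33.3.

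Grm6, the receptor of ON bipolar cells, had the highest level of all members at 33.3 CPM per kb, above 99.5% of all genes, and the window before its start has the fewest CG of those shown above. Grm8, another metabotropic receptor found in retina, stood at 28.1. Among the channels, Gabra5 (26.7) and Grin2b (26.0), an NMDA receptor subunit, stood highest, and among monoamine receptors Htr1a (24.9) and Adra2a (24.7). The lowest were Chrnb1 (3.02) and Chrna1 (3.30), both subunits of the muscle nicotinic receptor, with Chrna6 (3.57) beside them. Chrm5 and Chrnb1 had too few reads for a test of genotype. RefSeq lists 92 autosomal receptor genes of these classes, and 16 of them had no peak assigned. Of the 16, Chrm4, Chrne and Grik5 were overlapped by a peak assigned to another gene. No peak overlapped the other 13, among them the retinal genes Gria4, Gabrr2, Chrnb3, Chrnb4 and Drd1.

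The main comparison asked which receptor genes changed in H3K27me3 when Jarid2 was lost. Reads of all peaks of a gene were summed and fitted over all genes with batch as a term (edgeR quasi-likelihood test, adjusted p under 0.05 over all genes taken as called). The 76 tested members leave out Chrm5 and Chrnb1 and include Grid2ip and Chrna1os, which encode no receptor. The mark was lower in cKO at 10 of these 76 genes, among them Adra1b, Htr1f, Chrm2, Chrm3, Chrna3, Grm7, Gria1, Gria2 and Grin3a. Lower calls made up 8.29% of all genes tested. It was higher at Adra1d and Chrnd, and higher calls made up 1.48% of all genes. The other 64 did not pass, and the median log2 fold change was -0.05 over the 76 members and 0.02 over all genes. In 9 genes every cKO animal lay below every control animal of its batch (8.16% of all genes), and in 3 (Adra1d, Chrnd and Htr5a) above (4.12% of all genes). With total counts in place of TMM scaling the split was 7 lower and 6 higher (6.68% and 4.15% of all genes), so the share of lower calls moved with the scaling, while no called gene changed sign. DESeq2 called 7 lower and 1 higher (6.9% and 0.293% of all genes). Under both, Chrm2, Gria2 and Htr1f lost their calls, and under DESeq2 Chrnd did as well.

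**Figure D2:**
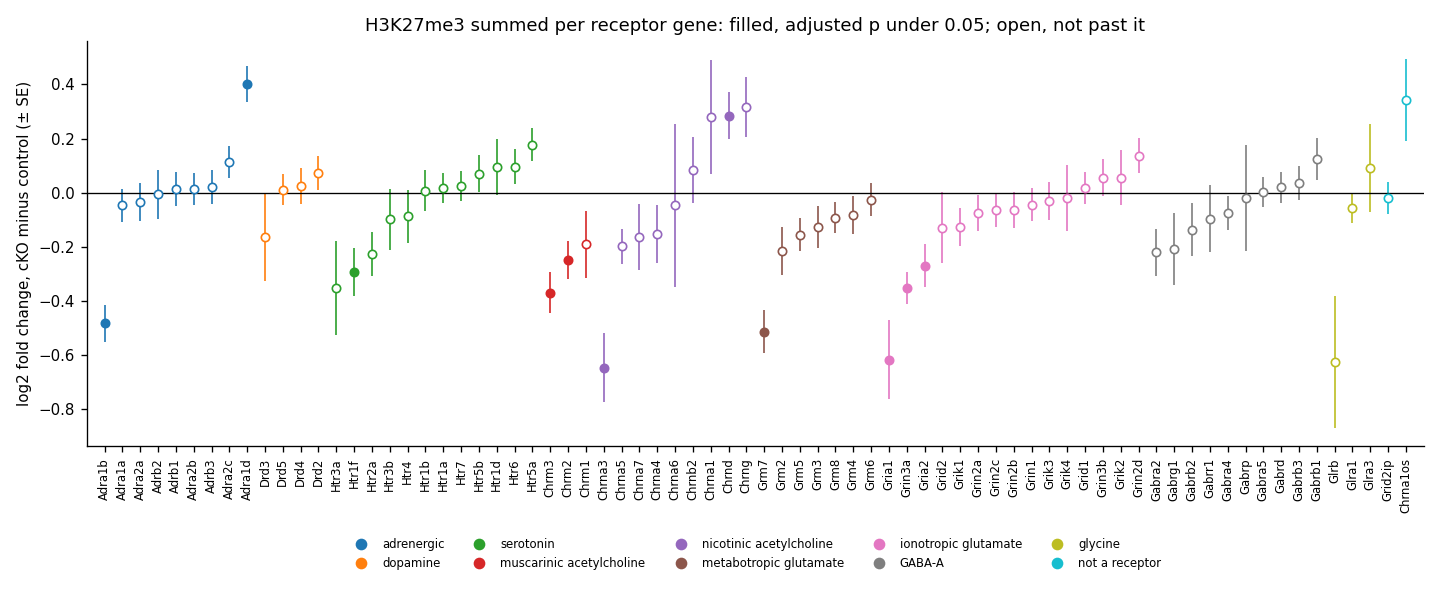
Log2 fold change in summed H3K27me3 (cKO minus control, bars ± SE) for 74 of the tested genes, coloured by receptor class and ordered within a class. Filled points passed an adjusted p under 0.05: 9 lie below 0 and 2 (Adra1d and Chrnd) above it.

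For the 12 called genes, genotypes were also permuted within batches on log2 CPM (exact permutation test, two-sided). This exact permutation test gave p = 0.0167, the smallest its 120 arrangements allow, for 11 of them and p = 0.05 for Chrm2. These genes were picked by the same contrast, so the permutation p-values are not independent evidence. Values below are CPM per animal in the order of replicates 1 to 5, the first 2 from batch 1. The batches differed in level at most of these genes, so the groups are read within a batch, as in the plot of called genes by animal.

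**Figure D3:**
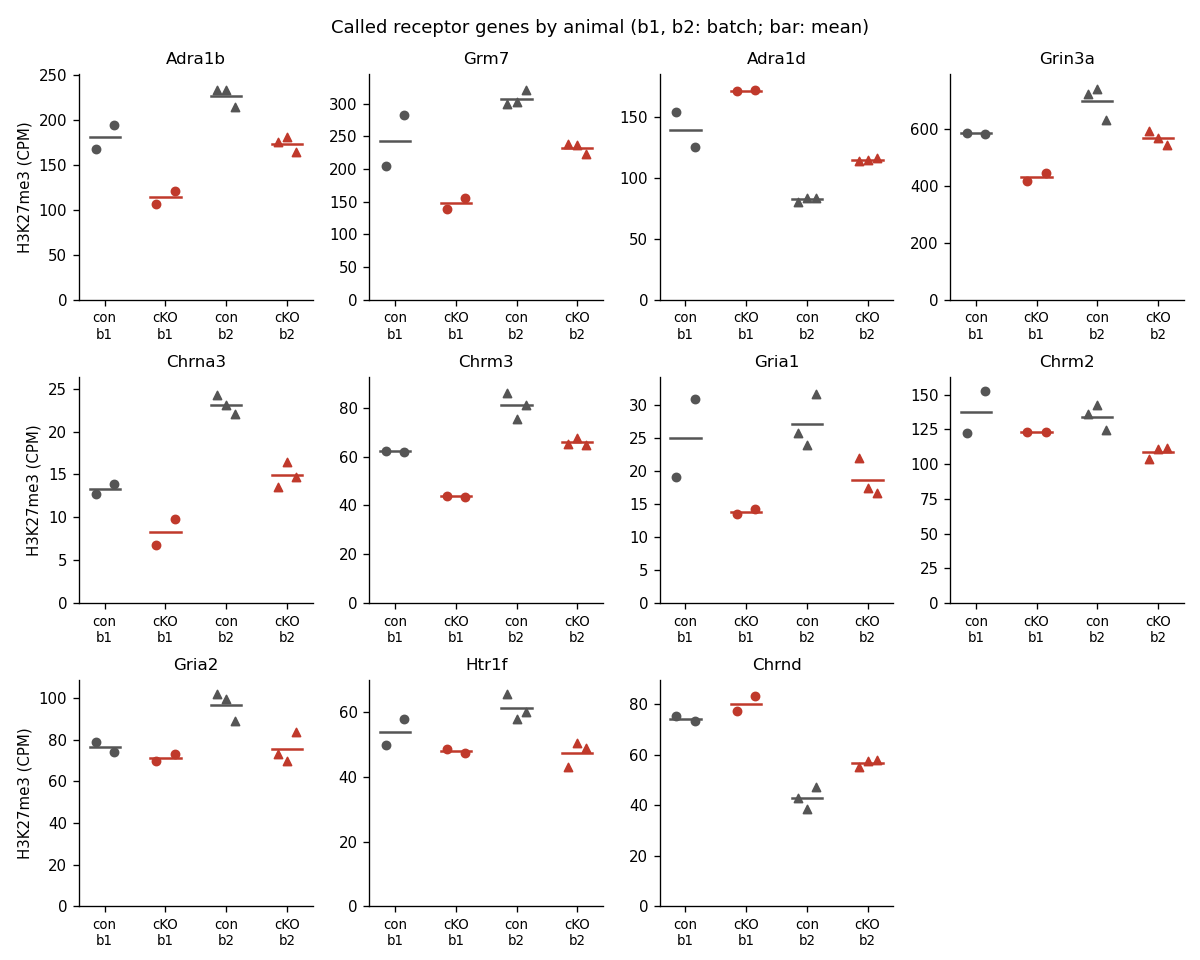
H3K27me3 (CPM, vertical axis from 0) at 11 called receptor genes in 5 control (grey) and 5 cKO (red) animals, with batch 1 as circles and batch 2 as triangles and bars for means. In each batch the cKO points lie on 1 side of the control points at every gene but Chrm2.

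Among adrenergic receptors, the 2 called genes were both alpha-1 receptors, which couple to Gq and calcium release, and they went opposite ways. Adra1b stood at 168, 194, 233, 234 and 215 CPM in controls, against 107, 122, 175, 181 and 165 CPM in cKO. Both batches showed lower values in every cKO animal, and the groups overlapped only across batches. The log2 fold change and its SE were -0.48 ± 0.07 (edgeR adjusted p = 1.17e-04), with -0.65 in batch 1 and -0.39 in batch 2. Adra1d held 154, 125, 80.1, 83.9 and 83.2 CPM in controls, against 171, 172, 114, 115 and 116 CPM in cKO. Here every cKO animal was above the controls of its batch, with a log2 fold change of 0.40 ± 0.07 (edgeR adjusted p = 4.54e-04). The third alpha-1 gene, Adra1a, had similar means of 234 ± 14.2 and 227 ± 13.3 CPM (control and cKO, SD, n = 5 each, log2 fold change -0.05 ± 0.06). The alpha-2 gene Adra2c, an inhibitory autoreceptor, had a log2 fold change of 0.11 ± 0.06 (edgeR adjusted p = 0.278), and Adra2a one of -0.03 ± 0.07. None of the 3 beta receptor genes passed the test.

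The Adra1d peak (chr2:131554650-131567750, mm10) reaches over its start and the noncoding genes Gm14285 and Gm39938. A second peak over the 3′ end of Adra1d, chr2:131545470-131549210, is assigned to Gm14285 by the annotation. It was also higher in cKO, from 87.0 ± 17.7 to 103 ± 12.9 CPM (log2 change 0.26 ± 0.08, edgeR adjusted p = 0.0353).

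Muscarinic receptors had 2 of only 3 tested genes called, both lower (8.29% of all genes tested were lower). Chrm3, the Gq-coupled M3 receptor, held 62.5, 61.9, 86.2, 75.7 and 81.3 CPM in controls, against 44.1, 43.5, 65.1, 67.8 and 65.0 CPM in cKO. Within each batch the groups were apart, and the log2 fold change came to -0.37 ± 0.08 (edgeR adjusted p = 0.00347). Its single peak, chr13:10357820-10364200, spans the start whose CG are shown above. Chrm2, the Gi-coupled M2 receptor, held 123, 153, 136, 142 and 125 CPM in controls, against 123, 123, 104, 111 and 112 CPM in cKO. In batch 1 the groups overlapped, since control replicate 1 was level with both cKO animals. This gave a log2 fold change of -0.25 ± 0.07 (edgeR adjusted p = 0.0275). This call was lost on leaving out control replicate 2, 3 or 4 or cKO replicate 3, 4 or 5, with adjusted p between 0.00296 and 0.0976 over the 10 animals left out in turn. Chrm1 had a log2 fold change of -0.19 ± 0.12 (edgeR adjusted p = 0.398).

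In the nicotinic family, Chrna3 and Chrnd were called in opposite directions. Chrna3, the subunit of the ganglion-type receptor that is also used in the developing retina, held 12.7, 13.9, 24.3, 23.1 and 22.1 CPM in controls. In cKO it held 6.74, 9.78, 13.6, 16.5 and 14.7 CPM. Every cKO animal was below the controls of its batch, and the change was the same in both batches (log2 fold change -0.65 ± 0.13, edgeR adjusted p = 0.00213, with -0.65 in each batch). It was the lowest fold change of the 76 genes, in a short peak of 1631 bases just inside the gene (chr9:55024930-55026560). Chrna5, its neighbour in the same gene cluster, went from 141 ± 11 to 123 ± 6.89 CPM without passing (log2 change -0.20 ± 0.07, edgeR adjusted p = 0.0643). Chrna4, Chrna6 and Chrnb2, subunits of neuronal receptors in the visual system, had adjusted p from 0.435 to 0.952. The Chrna4 sum joins 2 unlike peaks. Its promoter peak was lower in every cKO animal within its batch, without passing (log2 change -0.36 ± 0.11, edgeR adjusted p = 0.0538). The other Chrna4 peak, upstream and outside any RefSeq gene, had a log2 change of 0.02 ± 0.13.

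Chrnd, the delta subunit of the muscle receptor, held 75.2, 73.2, 42.7, 38.4 and 47.3 CPM in controls, against 77.2, 83.1, 55.1, 57.5 and 57.9 CPM in cKO. The groups were apart within batches, narrowly in batch 1 (log2 fold change 0.13) and more in batch 2 (0.41). Overall the log2 fold change came to 0.28 ± 0.09 (edgeR adjusted p = 0.0444). Its peak, chr1:87184610-87191800, also overlaps Prss56, so the change cannot be given to Chrnd alone. The call was lost on leaving out control replicate 3 or 4 or cKO replicate 2, 3, 4 or 5, with adjusted p from 0.0202 to 0.134. Chrng, the gamma subunit next to it, had a log2 fold change of 0.32 ± 0.11 (edgeR adjusted p = 0.086).

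Serotonin receptors had 1 call, a lower one, among 12 tested genes (8.29% of all genes tested were lower). Htr1f, a Gi-coupled receptor, held 49.8, 58.1, 65.6, 58.0 and 60.2 CPM in controls, against 48.7, 47.4, 43.2, 50.4 and 48.9 CPM in cKO. In batch 1 the gap between the groups was about 1 CPM wide at its narrowest, and in batch 2 every cKO animal was clearly lower. This gave a log2 fold change of -0.29 ± 0.09 (edgeR adjusted p = 0.0404), and the call held only on leaving out control replicate 1 or cKO replicate 1 (adjusted p from 0.0146 to 0.123). Htr5a, a Gi-coupled receptor, went the other way within both batches, from 127 ± 10.3 to 143 ± 5.98 CPM, without passing (log2 fold change 0.18 ± 0.06, edgeR adjusted p = 0.0697). Htr2a, a Gq-coupled receptor, had one of -0.23 ± 0.08 (edgeR adjusted p = 0.0861). Htr1a, with the highest level of the class, stood at 364 ± 16.7 and 369 ± 19.5 CPM. Of 4 dopamine receptor genes tested, none was called (edgeR, with 0 at an unadjusted p under 0.05, and 0 with DESeq2 and limma-voom). Drd4 and Drd2 had log2 fold changes of 0.02 ± 0.07 and 0.07 ± 0.06.

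All 8 metabotropic glutamate receptor genes had log2 fold changes below 0, the lowest at -0.51, and 1 passed the test. With total counts 6 of the 8 were below 0. With this few genes and a shared scaling, that count is a description. Grm7, a Gi-coupled presynaptic receptor of ribbon synapses, held 204, 282, 299, 303 and 320.2 CPM in controls, against 139, 155, 238, 237 and 223 CPM in cKO. Its cKO animals lay below the controls in both batches (log2 fold change -0.51 ± 0.08, edgeR adjusted p = 2.75e-04). Grm5 and Grm2 had smaller differences that did not pass (-0.15 ± 0.06 and -0.21 ± 0.09, edgeR adjusted p = 0.136 and 0.150). Grm6 stood at 254 ± 12.1 CPM in the controls and 249.6 ± 19.8 CPM in cKO (log2 fold change -0.03 ± 0.06) and Grm8 at 168 ± 11.4 and 157 ± 11.3 CPM. Neither of these heavily marked genes was called.

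Of 15 ionotropic glutamate receptor genes tested, 3 were lower and none was higher (8.29% and 1.48% of all genes). Gria1 and Gria2 encode AMPA receptor subunits, and Grin3a a glycine-binding NMDA receptor subunit. Gria1 held 19, 30.9, 25.7, 23.9 and 31.7 CPM in controls, against 13.5, 14.2, 22.0, 17.4 and 16.6 CPM in cKO. Each batch kept the groups apart (log2 fold change -0.62 ± 0.15, edgeR adjusted p = 0.00881). Gria2, whose subunit makes AMPA channels impermeable to calcium, held 78.6, 73.8, 102, 99.6 and 88.7 CPM in controls, against 69.5, 72.8, 73.1, 69.6 and 83.5 CPM in cKO. The gap was small in batch 1 (log2 fold change -0.08) and larger in batch 2 (-0.38), for -0.27 ± 0.08 over both (edgeR adjusted p = 0.036). That call was lost on leaving out replicate 3 or 4 of either group, with adjusted p from 0.0154 to 0.128. Grin3a held 585, 582, 720.5, 739 and 631 CPM in controls, against 416, 445, 592, 565 and 542 CPM in cKO. It lay lower in every cKO animal of both batches (log2 fold change -0.35 ± 0.06, edgeR adjusted p = 5.46e-04).

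The other NMDA receptor genes did not pass. Grin1, the obligate subunit, stood at 689.6 ± 63.9 CPM in the controls and 668 ± 36.6 CPM in cKO over a peak that also overlaps Lrrc26 and Tmem210. Grin2a, Grin2b and Grin2d had log2 fold changes of -0.07 ± 0.07, -0.06 ± 0.07 and 0.14 ± 0.07. The kainate receptor gene Grik1, used by OFF bipolar cells, had one of -0.13 ± 0.07 (edgeR adjusted p = 0.299).

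Of 11 GABA-A genes tested, Gabra2, which encodes an alpha subunit, had a log2 fold change of -0.22 ± 0.09 (edgeR adjusted p = 0.134) and Gabrb1 one of 0.12 ± 0.08. Gabra5 stood at 272 ± 15.1 and 273 ± 10.49 CPM, and Gabrr1, the rho subunit of bipolar cell terminals, at 19.7 ± 2.97 and 18.4 ± 3.30 CPM. No glycine receptor gene was called among 3 (edgeR, with 1 at an unadjusted p under 0.05, and 0 with DESeq2 and limma-voom). That gene, Glrb, the beta subunit, went from 6.86 ± 0.96 to 4.54 ± 1.61 CPM (log2 change -0.63 ± 0.24, edgeR adjusted p = 0.122), close to the lowest levels that could be tested. Glra1 and Glra3 had log2 fold changes of -0.06 ± 0.06 and 0.09 ± 0.16. Of the members that encode no receptor, Grid2ip had one of -0.02 ± 0.06 and Chrna1os one of 0.34 ± 0.15 (edgeR adjusted p = 0.202).

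Peaks were then tested singly, with those of Grid2ip and Chrna1os counted among the receptor peaks. Of 106 tested receptor peaks, 12 were lower and 2 higher in cKO, while 7.38% and 1.46% of all tested peaks were lower and higher. With total counts the split was 8 and 5 (6.21% and 2.86% of all peaks). Within both batches the groups were fully apart at 11 receptor peaks in the lower and 4 in the higher direction (7.59% and 3.94% of all peaks). At promoters, 7 of 75 receptor peaks were lower and 2 higher (4.25% and 1.84% of all promoter peaks). Away from promoters 5 of 31 were lower and none higher (10.9% and 1.04% of all such peaks). These 5 held the 4 lowest log2 fold changes among called receptor peaks, as the plot of single peaks shows. Peaks shared between genes were few: 10 receptor peaks overlapped 2 or more protein-coding genes, and of these only the Chrnd peak was called.

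**Figure D4:**
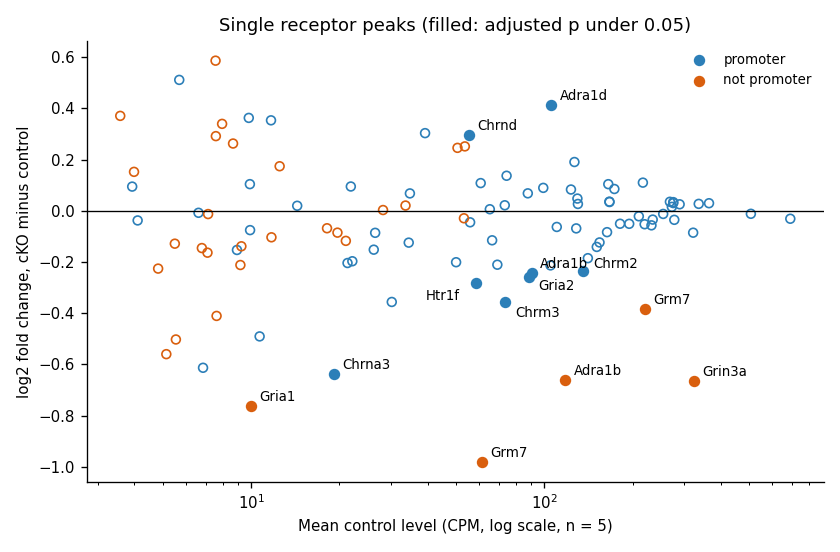
Log2 fold change (cKO minus control) against mean control level (CPM, log axis, n = 5) for 104 of the tested receptor peaks, blue at promoters and orange elsewhere. Filled, named points passed an adjusted p under 0.05; the lowest is the Grm7 peak at -0.98.

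At Grin3a the change lay inside the gene. Its intron peak, chr4:49799890-49816170, begins 29379 bases from the start and held 247, 287, 376, 388 and 324 CPM in controls. In cKO it held 130, 140.3, 266, 263 and 245 CPM. All cKO animals were lower within their batch, and the fold change was larger in batch 1 (log2 -0.98) than in batch 2 (-0.50), a difference that did not pass (edgeR interaction adjusted p = 0.721, unadjusted p = 0.00325). Over both batches the log2 fold change came to -0.66 ± 0.09 (edgeR adjusted p = 2.69e-05). The promoter peak of the same gene, chr4:49839020-49851070, held 346, 288, 338, 348 and 290.3 CPM in controls, against 295, 312, 326, 299 and 288 CPM in cKO. Those groups overlapped, with a log2 fold change of -0.09 ± 0.07 (edgeR adjusted p = 0.534).

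Adra1b had the same layout. RefSeq gives Adra1b 2 starts, and distances here are from the downstream start at chr11:43836489, whose window is shown above. The intron peak, chr11:43813140-43821230, lies 15259 to 23349 bases past that start. It held 87.6, 109, 134, 141 and 118 CPM in controls against 52.2, 57.1, 88.0, 95.3 and 80.9 CPM in cKO. Every cKO animal was lower within its batch (log2 fold change -0.66 ± 0.08, edgeR adjusted p = 2.51e-05). The peak over the CG-rich start, chr11:43830900-43839410, fell less, from 90.7 ± 6.68 to 76.5 ± 13.3 CPM (log2 change -0.24 ± 0.08, edgeR adjusted p = 0.0461). That second call held only on leaving out control replicate 5 or cKO replicate 3, with adjusted p from 0.0225 to 0.147.

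Grm7 had no peak at its start. Its 2 peaks lie at -88442 to -81152 bases from the RefSeq start (chr6:110557070-110564360) and deep in an intron at 642672 to 656562 bases (chr6:111288270-111302160). The upstream peak held 25.9, 54.7, 70.6, 73.7 and 81.1 CPM in controls, against 17.1, 17.0, 44.6, 37.4 and 37.6 CPM in cKO. It was lower in all cKO animals within their batch, at log2 -0.98 ± 0.13 (edgeR adjusted p = 5.22e-05), though control replicate 1 stood far below the other controls. The intron peak went from 220.1 ± 21.4 to 169 ± 32.9 CPM (log2 change -0.38 ± 0.08, edgeR adjusted p = 0.00193). The upstream peak overlaps no gene in RefSeq and was given to Grm7 by the annotation as the nearest start, so whether it belongs to Grm7 was not tested.

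**Figure D5:**
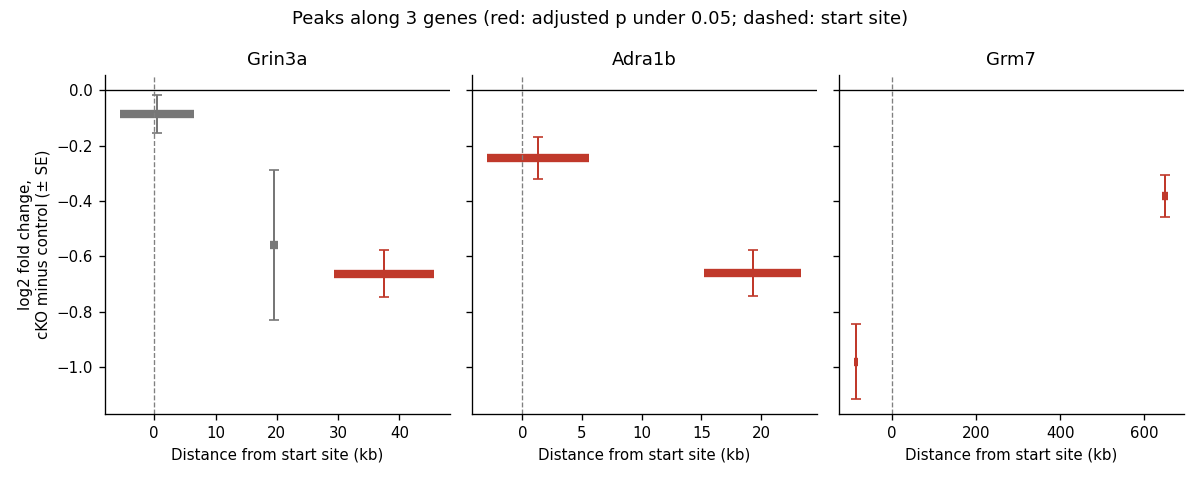
Log2 fold change (cKO minus control, ± SE) of the tested peaks of Grin3a, Adra1b and Grm7 against distance from the gene's start in kb. For Adra1b this is the downstream of its 2 RefSeq starts. Bar length shows the extent of each peak. Red peaks passed an adjusted p under 0.05; at Grin3a and Adra1b the peak over the start (dashed line) lies nearest 0.

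The difference between 2 peaks of a gene does not depend on the scaling of libraries, and it is given as a description for these 3 genes, which were chosen after their values were seen. The log2 ratio of the intron peak to the promoter peak of Grin3a fell by 0.60 from control to cKO, and that of Adra1b fell by 0.41. The ratio of the upstream to the intron peak of Grm7 fell by 0.59. No test is given, since the pairs were picked for this difference. Summed over promoter peaks only, Grin3a was no longer called (edgeR adjusted p = 0.337), nor was Gria1 (0.163). At Gria1 the promoter peak had a log2 fold change of -0.49 ± 0.21 (edgeR adjusted p = 0.166) and the called intron peak, chr11:57145310-57147050, one of -0.76 ± 0.22 (adjusted p = 0.0295), on levels of 10.7 and 10 CPM in controls. The intron call was lost on leaving out control replicate 2 or 3 or cKO replicate 1, 2 or 4.

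The annotation gives peaks to the nearest start, and 30 peaks that overlap a RefSeq receptor gene, or the 2.5 kb before it, carry the name of another gene. Of 28 that could be tested, 4 were lower and 1, the Adra1d peak above, was higher (7.38% and 1.46% of all tested peaks). At Grm3, a Gi-coupled metabotropic receptor, the peak chr5:9618090-9632800 (annotated as intron and assigned to Gm42455) held 178, 203, 215, 222 and 200.2 CPM in controls, against 111, 119, 151, 156 and 158 CPM in cKO. Every cKO animal was below every control, with no overlap even across batches (log2 fold change -0.55 ± 0.07, edgeR adjusted p = 2.46e-05). The promoter peak assigned to Grm3 itself went from 66.4 ± 5.69 to 61.4 ± 1.58 CPM without passing (edgeR adjusted p = 0.427).

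Grin2b showed the same contrast between start and body. Its promoter peak stood at 195 ± 15.9 CPM in controls and 188 ± 13 CPM in cKO, while 2 small intron peaks assigned to Gm22892 were lower. The peak chr6:135794410-135796400 went from 19.8 ± 7.5 to 9.82 ± 5.09 CPM (log2 change -1.0 ± 0.17, edgeR adjusted p = 4.6e-04), and chr6:135797950-135799230 from 15.1 ± 6.53 to 6.94 ± 4.27 CPM (-1.10 ± 0.17, adjusted p = 2.32e-04). Both were lower in every cKO animal within its batch. At Drd3, a D2-like dopamine receptor, the peak chr16:43799410-43802460 assigned to Gm25996 held 21.4, 27.1, 20.3, 29.0 and 26.7 CPM in controls, against 17.1, 15, 16.9, 18.7 and 17.9 CPM in cKO. The groups did not overlap (log2 fold change -0.53 ± 0.13, edgeR adjusted p = 0.00939). When all peaks over a RefSeq gene were summed in place of the assigned ones, 13 receptor genes were lower and 2 higher (6.78% and 1.34% of all such genes), and the 3 added were Grm3, Drd3 and Htr2a.

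Whether the effect of genotype differed between the batches was tested for all genes. The interaction was called at 0 of the 76 tested members (edgeR, 2 of them, Adra1b and Grik4, at an unadjusted p under 0.05, no other tool run). Over all genes, 0.0177% were called and 4.46% had an unadjusted p under 0.05. In batch 1 alone, with 2 animals per genotype, 0 receptor genes were called (edgeR, 11 at an unadjusted p under 0.05), and in batch 2 alone 10 were lower and 2 higher (6.23% and 1.19% of all genes).

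Control replicate 1, which carried Cre and 1 floxed allele, lay on the cKO side of control replicate 2, of the same batch, at 9 of the 12 called receptor genes. Over all called genes it did so at 1012 of 1107 (91.4%), with 95.8% of lower and 66.7% of higher genes. Among genes that were not called the shares were 61.9% for negative and 61.6% for positive fold changes. These 2 animals also differ in sex, so genotype and sex cannot be told apart. Without control replicate 1, 11 receptor genes were lower and 2 higher in cKO (9.1% and 2.06% of all genes), and none of the 12 calls was lost.

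Genes that work with receptors were followed in 3 lists, set by the genes' roles with earlier results of these data known. Of 33 genes of transmitter synthesis, storage and uptake, 24 were tested, 1 was lower and none higher (8.29% and 1.48% of all genes). It was Slc18a2, the vesicular monoamine transporter, at 35.6, 42.9, 50.0, 49.0 and 46.4 CPM in controls, against 29.0, 30.3, 38.0, 37.9 and 40.8 CPM in cKO. The cKO animals were lower within both batches (log2 fold change -0.34 ± 0.09, edgeR adjusted p = 0.0128). The glutamate transporter genes Slc1a1 and Slc1a2 had log2 fold changes of -0.27 ± 0.09 and -0.20 ± 0.07 that did not pass (edgeR adjusted p = 0.0657 and 0.0883).

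Of 40 auxiliary subunits, scaffolds and synaptic organisers, 29 were tested and none was called (edgeR, 5 at an unadjusted p under 0.05, and 0 with DESeq2). Shisa6, an AMPA receptor auxiliary protein, went from 220.3 ± 10.6 to 196 ± 5.61 CPM with no overlap of the groups (edgeR adjusted p = 0.0643). Lhfpl4, which gathers GABA-A receptors at synapses, had a log2 fold change of 0.21 ± 0.07 (edgeR adjusted p = 0.0682), and Neto1, a kainate receptor partner, one of -0.19 ± 0.07 (adjusted p = 0.114). Of 26 G-protein and second messenger partners, 18 were tested, 1 was lower and 1 higher. Gnao1, the G protein through which Grm6 signals in ON bipolar cells, went from 41.4 ± 3.84 to 52.6 ± 6.31 CPM, higher within both batches (log2 fold change 0.35 ± 0.09, edgeR adjusted p = 0.0139). Plcb4, a phospholipase acting downstream of Gq, went from 13.1 ± 2.83 to 8.36 ± 2.40 CPM (log2 change -0.61 ± 0.19, edgeR adjusted p = 0.0434), which was lost on leaving out control replicate 2 or 5 or cKO replicate 1, 2, 3 or 5. Rgs9 had a log2 fold change of 0.16 ± 0.06 (edgeR adjusted p = 0.134). Lower calls made up 4.17%, 0% and 5.56% of the tested genes of the 3 lists, beside 8.29% of all genes. Higher calls made up 0%, 0% and 5.56%, beside 1.48% of all genes. Median log2 fold changes of the 3 lists were -0.03, -0.01 and -0.01, beside 0.02 over all genes.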

How the data were processed

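The deposited table holds counts of reads per H3K27me3 peak for 16 libraries of 10 animals, with gene, peak width in bases (another deposited value) and distance from a start site (a deposited score), per the file headers. The submitters' processing notes name the build mm10, DESeq2 1.38.1, MACS2, SAMtools and Novoalign 4.02.02. How peaks were called, and on which libraries, is not given in sources used here. IgG libraries (6) were not analysed here. The protocol text calls the controls fl/fl, and the sample labels were used.

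Counts of technical duplicates were summed per animal, as the chi-square divided by its degrees of freedom was 0.88 to 0.997 in the 6 pairs, no more than counting noise. After filterByExpr (16307 peaks, 11324 genes) and TMM scaling, edgeR 4.0.16 quasi-likelihood tests (R 4.3.3) were run with a batch term over the whole table and adjusted by Benjamini-Hochberg. A standard error is the log2 fold change divided by the square root of F. The steps were tested on simulated data. Same-numbered animals did not pair: correlations of their batch-adjusted deviations were -0.46, -0.46, 0.11, 0.03 and 0.04. Named genes were the called members, the highest and up to 2 further genes with the smallest p per class, a retina list, and 3 genes per partner list. Some of these are not reported here. Members and lists were chosen with earlier results of these data known. Alternatives were other scalings, no filter, DESeq2 1.42.0, limma-voom 3.58.1, no batch term, a replicate block, each batch, each duplicate, each animal left out, promoter peaks or RefSeq gene bodies, and other thresholds. Figures were drawn with matplotlib 3.10.9.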

Additional observations from a re-analysis of the deposited data

Results flagged for a closer look

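In 106 groups of 5 animals (47 genes and 6 peaks, controls and cKO apart), 3 held an animal that stood apart from the rest of its group. Chance flags about 1 in 20 where all 5 values come from the same population. The animals here span 2 batches and were not adjusted for batch, so that rate need not hold. At Gria2, cKO replicate 5 held 83.5 CPM, above the other cKO animals, which narrows the difference reported there. At Htr5a, cKO replicate 4 held 132 CPM, below the other cKO animals. At the intron peak of Grm7, control replicate 1, the control that carried Cre, held 182 CPM, below the other controls and level with the batch 2 cKO animals.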

How the results depend on the processing

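None of the 12 called genes and 14 called peaks changed sign under any of their 568 refits, and 404 of these kept the call. Of 35 genes covered by the naming rule that were tested and not called, 14 changed sign in at least 1 refit, all with a log2 fold change within 0.091 of 0, and 7 passed in at least 1. Adra1b, Adra1d, Grm7, Chrm3 and Chrna3 lost their calls, as summed genes, only without the batch term or in batch 1 alone. Counts below are against 12 lower and 2 higher receptor peaks, and 10 lower and 2 higher receptor genes. Lower peaks numbered 7 with DESeq2, 1 without a batch term (23 at an unadjusted p under 0.05 in edgeR), 1 in batch 1 alone (16 unadjusted) and 7 at adjusted p under 0.01, and 7 to 13 on leaving out an animal. Higher peaks numbered 5 with total counts, 1 with DESeq2, 0 without a batch term, 0 in batch 1 alone, 1 with either duplicate alone, 1 at adjusted p under 0.01, 6 under 0.1, and 1 to 3 on leaving out an animal. Lower genes numbered 0 without a batch term (edgeR, 18 at an unadjusted p under 0.05), 0 in batch 1 alone (11 unadjusted), and 7 to 11 on leaving out an animal. Higher genes numbered 6 with total counts, 1 without the filter, 1 with DESeq2, 0 without a batch term, 0 in batch 1 alone, 1 with either duplicate alone, 1 at adjusted p under 0.01, 4 under 0.1, and 1 to 2 on leaving out an animal. With the replicate block, 8 genes were lower and 1 higher (9 and 2 peaks), and Gria2, Htr1f and Chrnd lost their calls (edgeR adjusted p 0.0683, 0.0706 and 0.0688). The interaction stayed at 0 genes on leaving out any animal. The cause of these shifts was not tested.

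For synthesis, storage and uptake genes, against 1 lower, there were 2 lower without the filter and with the first duplicate, 0 with DESeq2, without a batch term, in either batch alone, with the second duplicate and at adjusted p under 0.01, 3 under 0.1, and 1 to 2 on leaving out an animal. For scaffolds, against 0, there was 1 lower without the filter, with the second duplicate, by RefSeq gene bodies and under 0.1, with 0 to 1 on leaving out an animal, and 1 higher with total counts and under 0.1. For G-protein partners, against 1 lower, there were 0 with total counts, DESeq2, no batch term, batch 1 alone, the first duplicate, promoter peaks, RefSeq gene bodies and adjusted p under 0.01, and 0 to 2 on leaving out an animal. Against 1 higher there, there were 2 with total counts and 0 with DESeq2, no batch term, either batch alone, the second duplicate, promoter peaks and adjusted p under 0.01.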

Other observations

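Called peaks at promoters were found on both sides of the comparison. Of the 12 lower receptor peaks 7 lay at promoters, and so did both higher peaks. Adra1d and Chrnd, the higher genes, each had only 1 assigned peak, over the start, at control levels of 8.05 and 7.72 CPM per kb. The 4 most strongly lowered called peaks lay away from starts, at Grm7, Gria1, Grin3a and Adra1b, at control levels of 8.39, 5.74, 19.9 and 14.6 CPM per kb. This is a description of peaks chosen for their change, with no test.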
